A study of Mus musculus with 8 samples.

Results

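Expression of 8 genes of Toll-like receptor sensing was followed through sorted leukocytes of heart and blood: the receptors Tlr2, Tlr4, Tlr7, Tlr9 and Tlr13, the co-receptor Cd14, the receptor-bound protein Ly96 (MD-2) and the adapter Myd88. The members were chosen by gene symbol, and all 8 were found among the 32285 gene identifiers of the deposited matrix. CD45+CD11b+ cells were taken from blood and heart of 4 recipient mice and profiled by droplet single-cell RNA sequencing, with 1 library per mouse and a hashtag antibody that marked the organ. All recipients were Mx1Cre:c-Mybfl/fl, a genotype in which Cre under the Mx1 promoter removes the floxed c-Myb gene and with it the blood-forming cells of the host. They had then received bone marrow from a control donor (2 mice, control replicates 1 and 2) or from a donor that had undergone stroke (2 mice, stroke replicates 1 and 2). Age, the interval since stroke and the share of remaining host cells are not stated in the labels. The design asks whether marrow that had been exposed to stroke gives rise to altered myeloid cells in blood and heart.

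Toll-like receptors are membrane proteins of innate immune cells that bind conserved microbial molecules and some molecules of damaged tissue. TLR4 recognises bacterial lipopolysaccharide once CD14 has handed the lipid over to MD-2 on the receptor, TLR2 recognises bacterial lipoproteins as a pair with TLR1 or TLR6, and TLR7, TLR9 and TLR13 sit in endosomes, where they read single-stranded RNA, unmethylated CpG DNA and bacterial ribosomal RNA. All of these receptors signal through MyD88 and IRAK kinases to NF-kB and mitogen-activated kinases, which switch on cytokine and chemokine genes. In tissues such as the heart they are found mostly on macrophages, monocytes, neutrophils and dendritic cells.

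On GRCm38 (mm10), with GENCODE vM21 annotation, the genes lie as follows. Tlr2 is at chromosome 3, 83836272 to 83841767, minus strand, and Tlr4 at chromosome 4, 66827584 to 66930284, plus strand. Tlr7 is at chromosome X, 167304929 to 167330558, minus strand, and Tlr13 at chromosome X, 106143204 to 106160493, plus strand. Tlr9 is at chromosome 9, 106222598 to 106226883, plus strand and Ly96 at chromosome 1, 16688051 to 16709611, plus strand. The position of Cd14 is not given here. Myd88, at chromosome 9, 119335934 to 119341411, minus strand, overlaps Slc22a14 on its own strand and Acaa1a on the other, and how the counting assigned shared reads is not known here.

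RefSeq promoter windows (GRCm38.p6, 250 bases before to 50 after the annotated start) were on hand for 4 of the 8 members: Tlr2, Tlr9, Tlr13 and Myd88. Of these, 3 are shown: Tlr2, whose transcripts differed most often between heart and blood after those of Cd14, and Tlr13 and Myd88, whose levels were the most alike of any pair of members across organs and classes. Capitals mark matches to the letters searched on both strands: GAGGAAG (a PU.1-type motif), GAAA followed after any 2 bases by GAAA (interferon-response type), TGANTCA (AP-1 type) and GGG followed after any 2 bases by TTTCC (NF-kB type).
Tlr2, chr3:83841559-83841858, minus strand: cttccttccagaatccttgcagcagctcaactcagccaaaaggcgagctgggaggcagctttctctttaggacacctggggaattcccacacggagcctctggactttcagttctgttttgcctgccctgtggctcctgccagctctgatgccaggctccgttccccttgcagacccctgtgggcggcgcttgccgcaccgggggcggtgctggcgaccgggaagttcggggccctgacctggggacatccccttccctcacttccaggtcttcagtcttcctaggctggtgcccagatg
Tlr13, chrX:106143025-106143324, plus strand: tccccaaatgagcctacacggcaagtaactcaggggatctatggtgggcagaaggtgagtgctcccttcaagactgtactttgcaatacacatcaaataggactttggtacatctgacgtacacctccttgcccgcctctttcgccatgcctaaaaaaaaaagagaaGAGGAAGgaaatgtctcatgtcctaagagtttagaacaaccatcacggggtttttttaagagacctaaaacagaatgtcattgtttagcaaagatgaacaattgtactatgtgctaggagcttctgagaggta
Myd88, chr9:119339969-119340268, minus strand: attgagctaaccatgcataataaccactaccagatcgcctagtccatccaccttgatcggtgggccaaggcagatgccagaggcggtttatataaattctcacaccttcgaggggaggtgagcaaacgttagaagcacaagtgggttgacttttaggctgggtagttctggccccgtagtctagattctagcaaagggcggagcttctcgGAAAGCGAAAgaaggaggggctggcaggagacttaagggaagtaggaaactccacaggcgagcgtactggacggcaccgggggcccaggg
In the Tlr13 window GAGGAAG begins at base 168 of the 300, and in the Myd88 window an interferon-response match begins at base 211. The Myd88 window (119339969 to 119340268) lies wholly inside the GENCODE span of the gene (119335934 to 119341411). The RefSeq start used for it is thus downstream of the first transcribed base of that span. The Tlr2 window holds none of the 4 as spelled above, and other spellings of these motifs were not searched. The Tlr9 window, not printed, holds GAGGAAG letters on both strands and 1 TGANTCA match. Of all 32851 promoter windows of this length, 13.6% hold GAGGAAG, 3.44% the interferon-response letters, 7.81% TGANTCA and 1.63% the NF-kB letters, so these matches are descriptions of the sequence only.

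The libraries held 10067873 to 16513840 gene UMIs (unique molecular identifiers, 1 per captured transcript) in 2020 to 3303 barcodes, with medians of 4005 to 4689 UMIs per barcode. After filtering, 4912 heart and 4752 blood barcodes were kept. The suffix of a barcode was matched to the mouse by the sample number in the labels; no file states this match, and each comparison of donor groups rests on it. Control replicate 1 was male-type by Xist and Ddx3y and the other 3 mice female-type, which touches the X-linked Tlr7 and Tlr13. Clusters were named from marker genes, and 13 organ-by-class sums had at least 20 barcodes in each mouse; T cell-like cells did not. In the classical and nonclassical monocyte-like, neutrophil-like, macrophage-like, dendritic cell-like and B cell-like sums every marker of the own list was detected in each mouse, save Ccr7 in blood dendritic cell-like cells of the 2 stroke mice. The sort was labelled myeloid, yet B cell-like and NK cell-like barcodes were present, and 981 of the 1305 blood barcodes of stroke replicate 2 were B cell-like, which sets that library apart in whole-blood sums. Libraries shared 14 barcode sequences. Levels below are counts per 1000000 UMIs of the sum (CPM); with 3′ counting they compare 1 gene across cells and are not set between genes. Members were kept out of the genes used for clustering and of the marker lists, so a class was not defined by its receptor levels. Where 4 values stand together, the first pair belongs to control marrow (replicate 1, then 2) and the second pair to stroke marrow.

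**Figure D1:**
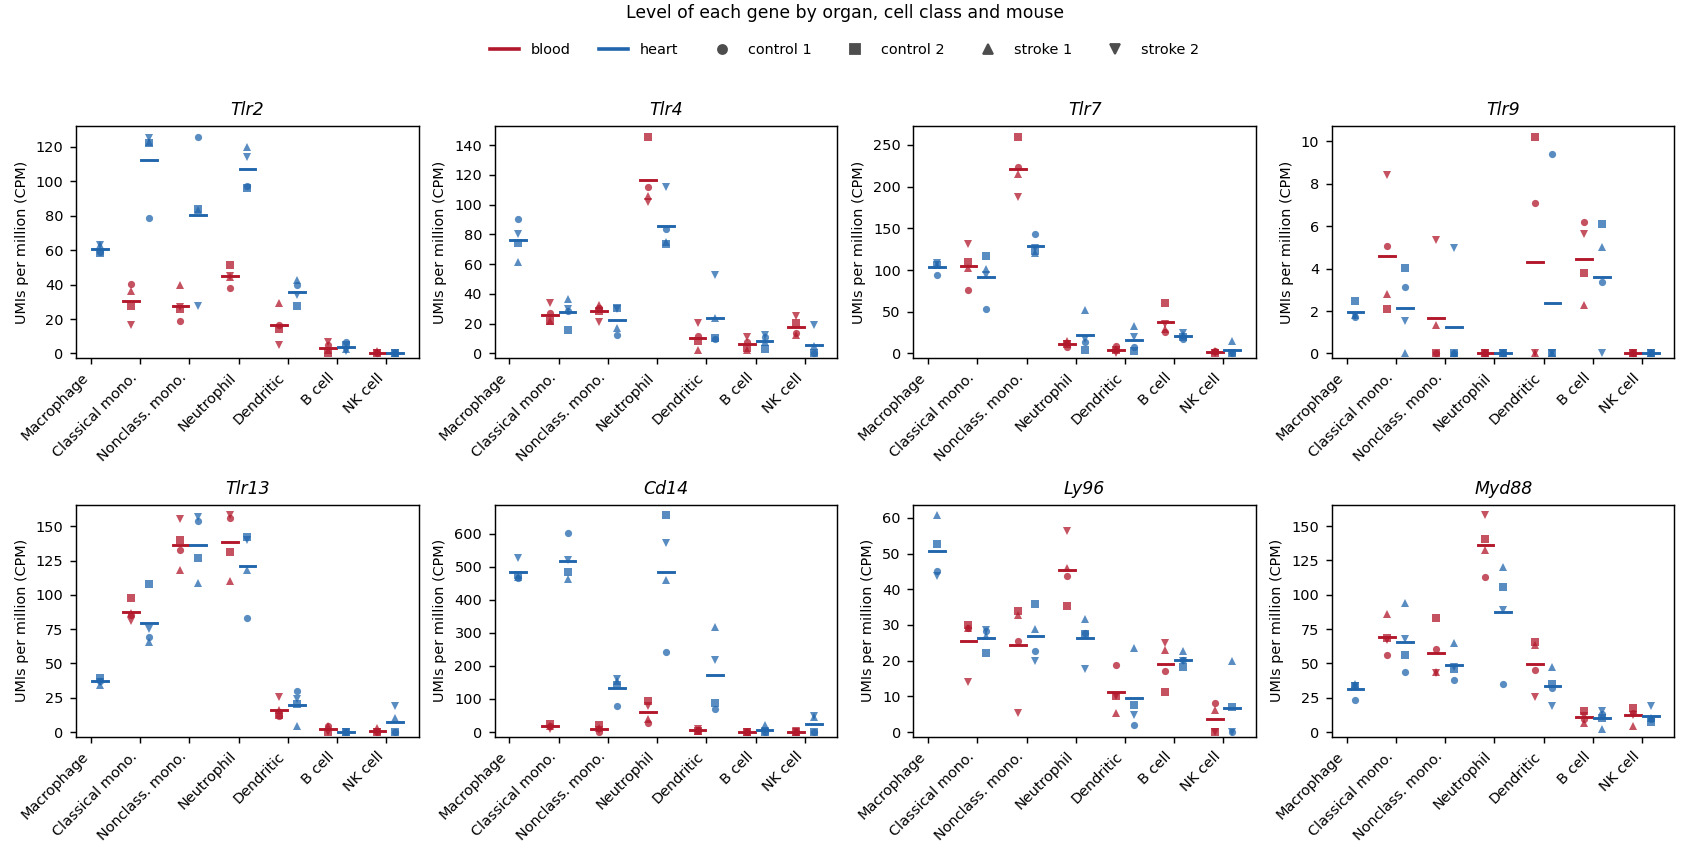
CPM of each of the 8 genes (vertical axes, linear, each with its own range) by cell class (horizontal axis), with a symbol per mouse, a bar at the mean over 4 mice, red for blood and blue for heart. Cd14 was high in heart macrophage-like, classical monocyte-like and neutrophil-like cells, at means of 484, 517 and 483 CPM, and at most 60.0 CPM in any blood class, whereas Tlr7 was highest in blood nonclassical monocyte-like cells, at 221 CPM.

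Among the surface receptors, Tlr2 was highest in heart classical monocyte-like cells, at 112 ± 22.5 CPM (SD, n = 4 mice here and throughout), and heart neutrophil-like cells, at 107 ± 12.1. Heart nonclassical monocyte-like cells followed at 80.2 ± 40.4 with a wide spread, and heart macrophage-like cells at 61.0 ± 2.49. The mice of these neighbours overlapped down to macrophage-like cells, whose lowest mouse (58.5) lay above the highest blood neutrophil-like one (51.7). Blood neutrophil-like (44.8), classical monocyte-like (30.4) and nonclassical monocyte-like cells (27.7) overlapped each other, and B cell-like cells had 3.89 CPM in heart and 3.43 in blood. Tlr2 gave 1 UMI in blood NK cell-like cells and none in heart ones.

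Tlr4 had another order. It was highest in blood neutrophil-like cells, at 112, 146, 106 and 102 CPM, then in heart neutrophil-like cells (85.9 ± 17.9) and heart macrophage-like cells (76.5 ± 12.2), which overlapped. Monocyte-like cells of both organs and subsets sat in a narrow band with means of 22.4 to 28.2 CPM, and their highest mouse (36.5) lay below the lowest macrophage-like one (61.2). Transcripts of the lipopolysaccharide receptor were thus found most in neutrophil-like and tissue macrophage-like cells.

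Cd14, the co-receptor that hands lipopolysaccharide to TLR4 and MD-2, was read at 603, 483, 461 and 521 CPM in heart classical monocyte-like cells and at 465, 476, 469.6 and 525 in heart macrophage-like cells. Heart neutrophil-like cells reached 243, 655, 460.3 and 572 CPM. The 3 classes overlapped, and all stood above heart dendritic cell-like cells (173 ± 116) and heart nonclassical monocyte-like cells (134 ± 38.0) except control replicate 1 of the neutrophil-like cells, which fell within the dendritic cell-like range. In blood the highest class was neutrophil-like, at 60.0 ± 31.6 CPM, and B cell-like cells had 3 UMIs in all. Cd14 UMIs were seen in 69.0% of heart macrophage-like barcodes and 65.9% of heart classical monocyte-like ones, against 8.74% of blood classical monocyte-like barcodes. In B cell-like cells, which should lack the gene, the share was 1.22% in heart and 0.0764% in blood, at median depths of 5055 to 6055.5 and 3948 to 5759 UMIs per mouse.

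Ly96, which encodes the lipid-binding partner of TLR4, was highest in heart macrophage-like cells (50.6 ± 7.80 CPM) and blood neutrophil-like cells (45.4 ± 8.71), which overlapped. Monocyte-like cells of both organs had means of 24.3 to 26.9 CPM, and B cell-like cells 20.2 in heart and 19.0 in blood, so B cell-like cells too held Ly96. NK cell-like cells had the lowest means, 6.78 CPM in heart and 3.58 in blood, on 5 and 7 UMIs. The 3 parts of the lipopolysaccharide receptor were most often caught together in heart macrophage-like barcodes: 28.6% had a Tlr4 UMI, 22.0% a Ly96 UMI and 5.35% ± 0.94 all 3 of Tlr4, Ly96 and Cd14. The share with all 3 was 1.85% ± 2.68 in heart classical monocyte-like barcodes, 0.595% ± 0.449 in heart neutrophil-like ones and 0.311% ± 0.377 in blood classical monocyte-like ones. Median depths per mouse were 4484.5 to 5215 UMIs in heart macrophage-like cells and 2149 to 2256 in heart neutrophil-like cells.

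The endosomal receptors split by class. Tlr7, a sensor of single-stranded RNA, was highest in blood nonclassical monocyte-like cells at 223, 259.8, 215 and 187 CPM, and their lowest mouse lay above the highest heart nonclassical monocyte-like one (143). Classical monocyte-like cells of blood (105 ± 22.8) and heart (91.3 ± 26.9) and heart macrophage-like cells (104 ± 6.64) overlapped. B cell-like cells had 38.0 ± 15.4 CPM in blood and 21.4 ± 3.04 in heart, and blood neutrophil-like cells 11.4 ± 3.28. Tlr13, which reads bacterial ribosomal RNA in mice, was highest in blood neutrophil-like cells (139 ± 22.6 CPM), nonclassical monocyte-like cells of blood (137 ± 15.3) and heart (136 ± 22.9) and heart neutrophil-like cells (121 ± 27.1), all overlapping. It stood at 87.6 and 79.5 CPM in classical monocyte-like cells of blood and heart and at 36.9 ± 2.22 in heart macrophage-like cells, whose 4 mice did not overlap either neighbour in the order. No Tlr13 UMI was found in heart B cell-like cells, where 3 UMIs would have been 3.05 to 7.53 CPM. Tlr9, the CpG DNA receptor, did not exceed a mean of 4.59 CPM in any class, and it passed the filter on low counts only in the whole-organ sums. Its 22 UMIs in blood classical monocyte-like and 40 in blood B cell-like barcodes were the largest counts outside those, and none was found in neutrophil-like or NK cell-like cells.

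Myd88, the shared adapter, was read at 113, 141, 132 and 158 CPM in blood neutrophil-like cells and at 34.8, 105, 120.2 and 88.9 in heart ones, which overlapped. Classical monocyte-like cells had 69.5 ± 12.3 CPM in blood and 65.6 ± 21.4 in heart, and heart macrophage-like cells 31.5 ± 5.38. B cell-like and NK cell-like cells of both organs lay between 10.3 and 12.1 CPM. Over the 13 organ-by-class means, the member most like Myd88 was Tlr13 (Pearson r = 0.911 on log2(CPM + 1)), the highest r between any 2 members.

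Genes most like each member across the same 13 points were found among 10777 genes; heart and blood points of a mouse share a library. For Cd14 they were Ier3 (r = 0.975), Clec4n (0.953) and Dusp1 (0.946), of which Ier3 and Dusp1 are immediate early response genes and Clec4n encodes dectin-2. For Tlr2 they were Ftl1 (0.944), Csf2ra (0.942) and Arl13b (0.937), and for Tlr4 Tnfrsf23 (0.938), Retreg2 (0.918) and Hnmt (0.916). Slc25a28 (0.905), Sh3kbp1 (0.882) and Ldlrad3 (0.880) led for Tlr7, and Sqor (0.979), 6430548M08Rik (0.973) and Atp7a (0.972) for Tlr13. For Ly96 the leaders were Insr (0.905), Aldh3b1 (0.890) and Pstpip2 (0.884), and for Myd88 Ugt1a6a (0.985), Gda (0.978) and Fam217b (0.977). Those of Tlr9, Ccdc28b (0.941), Irf4 (0.938) and Ifi30 (0.933), rest on levels near the detection limit.

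The first comparison was heart against blood within a class, fitted to 8 sums with a term for each mouse. Cd14 rose in the heart in all 4 myeloid classes that both organs held, by 9.90-fold to 37.1-fold, Tlr2 rose in 3 of them by 2.74-fold to 3.77-fold, and Tlr7 fell in 1. The lipopolysaccharide receptor Tlr4, its partner Ly96, the RNA receptor Tlr13 and the adapter Myd88 passed the test in none of these classes. The exceptions were Tlr13 (−0.66, adjusted p = 0.00979) and Myd88 (−0.98, adjusted p = 0.000445) in neutrophil-like cells, called when hashtag doublets alone were removed and no doublet caller was run. Of the steps before staining the labels say only that heart and blood gave mononuclear suspensions, so organ and preparation cannot be told apart.

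Cd14 in classical monocyte-like cells went from 17.7, 25.1, 18.0 and 8.40 CPM in blood to 603, 483, 461 and 521 in heart. Every heart value was above every blood value, and the log2 fold change was 4.82, SE 0.15 (edgeR quasi-likelihood test, adjusted p = 2.79e-15). In nonclassical monocyte-like cells it went from 0, 20.8, 13.6 and 5.35 to 78.0, 142, 153 and 162 CPM (3.69, SE 0.26, adjusted p = 8.15e-22). Neutrophil-like cells began higher, at 26.8, 93.9, 40.4 and 79.0 CPM in blood, and stood at 243, 655, 460.3 and 572 in heart (3.31, SE 0.18, adjusted p = 1.52e-10). Dendritic cell-like cells went from 4.73, 2.04, 2.66 and 10.1 CPM, which is 1 or 2 UMIs per mouse, to 69.8, 88.2, 316 and 217 (5.21, SE 0.39, adjusted p = 8.44e-07). In none of the 4 classes did blood and heart mice overlap.

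Tlr2 rose less. Its values in classical monocyte-like cells were 40.4, 27.8, 36.4 and 16.8 CPM in blood and 78.5, 122, 123 and 125 in heart (log2 fold change 1.92, SE 0.20, edgeR adjusted p = 3.65e-07). In neutrophil-like cells they were 37.7, 51.7, 44.6 and 45.1 against 97.4, 96.2, 120.2 and 114 (1.45, SE 0.23, adjusted p = 0.000139). Both pairs of groups were fully apart, while in nonclassical monocyte-like cells stroke replicate 2 hardly moved: blood read 18.6, 26.0, 39.5 and 26.7 CPM and heart 126, 84.2, 83.3 and 27.4 (1.64, SE 0.24, adjusted p = 2.32e-08). In dendritic cell-like cells Tlr2 was 2.30-fold higher in heart (95% interval from 1.34 to 3.94) with an adjusted p of 0.0953.

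Tlr7 fell in heart nonclassical monocyte-like cells, to 143, 123, 121 and 127 CPM from 223, 259.8, 215 and 187 in blood (log2 fold change −0.70, SE 0.13, edgeR adjusted p = 4.59e-06). The 2 organs did not overlap, and the value was −0.74 without the male-type control replicate 1. In classical monocyte-like cells, whose organs overlapped, it was −0.05, with a 95% interval from −0.34 to 0.24. Tlr8, the neighbouring single-stranded RNA receptor on the X chromosome, also fell in nonclassical monocyte-like cells (−0.62, SE 0.21, adjusted p = 0.0298). In B cell-like cells Tlr7 had −0.63, SE 0.25, with an adjusted p of 0.142.

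In classical monocyte-like cells 2 of the 7 members tested were called, where 18.9% of all genes tested were. The counts were 3 of 7 in nonclassical monocyte-like cells, where 15.6% of all genes were called, 2 of 6 in neutrophil-like cells (23.9%), 1 of 3 in dendritic cell-like cells (6.71%) and 0 of 3 in B cell-like cells (8.15%). No member passed the low-count filter in NK cell-like cells. The shares of members called are thus near or moderately above those of all genes, and in each of the 4 myeloid classes Cd14 had the largest difference of the members tested. Where it was tested, Tlr4 lay between −0.35 and 0.24, Tlr13 between −0.03 and 0.09, Ly96 between −0.50 and 0.15 and Myd88 between −0.48 and 0.23 on the log2 scale. The widest of their 95% intervals ran from 0.664-fold to 2.06-fold, for Myd88 in B cell-like cells, and among myeloid classes from 0.436-fold to 1.14-fold, for Ly96 in neutrophil-like cells.

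**Figure D2:**
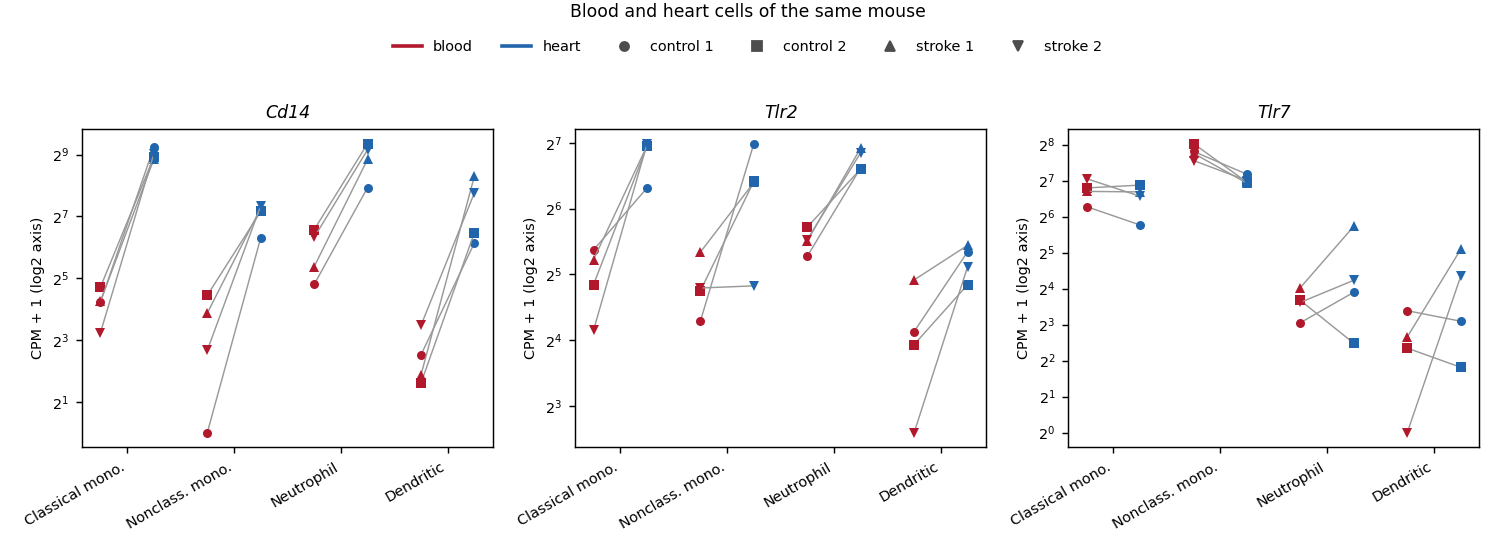
CPM + 1 on a log2 axis of Cd14, Tlr2 and Tlr7 in 4 myeloid classes, with blood (red) and heart (blue) values of a mouse joined by a line and a symbol per mouse. All 16 lines of Cd14 go up, Tlr2 of stroke replicate 2 in nonclassical monocyte-like cells is nearly level (26.7 to 27.4 CPM), and all 4 lines of Tlr7 in nonclassical monocyte-like cells go down.

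Different clusters held most of each class in the 2 organs, which stands beside all these values. Classical monocyte-like barcodes of blood were mostly in cluster 2 (95.9%) and those of heart in cluster 11 (88.6%). Blood nonclassical monocyte-like barcodes were mostly in cluster 8 and heart ones in cluster 6, blood neutrophil-like ones in cluster 3 and heart ones in cluster 9, while dendritic cell-like barcodes of both organs shared cluster 10. Within cluster 2, the 34 heart barcodes had 25 Cd14 UMIs (181 CPM) and the 1052 blood barcodes 120 UMIs (19.8 CPM). Tlr2 there stood at 29.0 CPM in heart, on 4 UMIs, and 34.5 in blood, on 209. Within cluster 8, Cd14 was at 56.0 CPM in 67 heart barcodes (9 UMIs) and 10.1 in 477 blood barcodes (17 UMIs). In the same order Tlr2 was at 62.3 (10 UMIs) and 29.6 (50 UMIs), and Tlr7 at 118 (19 UMIs) and 224 (378 UMIs). The organ difference of Cd14 was thus present inside clusters 2 and 8, on few heart UMIs, and smaller there than over the whole classes. These values are of barcodes pooled over mice, without a test. Cluster 10 held all dendritic cell-like barcodes of both organs, so the difference inside it is the one given above for that class.

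Markers of other classes moved with organ too. The summed macrophage markers (12 genes) in classical monocyte-like cells were at 314 to 399 CPM in blood and 1037 to 2403 in heart, against 17388 to 22808 in heart macrophage-like cells. In nonclassical monocyte-like cells they were at 361 to 376 and 361 to 465 CPM, in neutrophil-like cells at 115 to 202 and 197 to 355, and in dendritic cell-like cells at 210 to 1178 and 486 to 1969. Summed classical monocyte markers (8 genes) in neutrophil-like cells were at 138 to 298 CPM in blood and 412 to 1279 in heart. The part of these cells in the results was not tested in any class.

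Genes around the receptors were read from the same fits in 6 lists: other Toll-like receptors (7 genes), co-receptors and trafficking (10), adapters and kinases (19), transcription factors (9), inhibitors (14) and response genes (19). Response genes rose in the 4 myeloid classes: 13 of 13 tested in classical monocyte-like cells, 9 of 9 in nonclassical monocyte-like cells, 8 of 9 in neutrophil-like cells and 11 of 13 in dendritic cell-like cells, with median log2 fold changes of 5.13, 4.86, 4.13 and 3.91. In the same order 18.9%, 15.6%, 23.9% and 6.71% of all genes were called in either direction. Among B cell-like sums 1 of 5 response genes tested rose, where 8.15% of all genes were called. The chemokine Cxcl2 rose by 8.63, SE 0.18, in classical monocyte-like cells and by 9.28, SE 0.20, in neutrophil-like ones, and the cytokine Tnf rose by 4.31, SE 0.14, in the former (edgeR adjusted p = 7.45e-18, 7.42e-16 and 4.69e-15). Medians of all genes in these fits lay between −0.02 and −0.01.

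Inhibitors of the pathway rose with them, 7 of 11, 8 of 10, 7 of 10 and 7 of 9 tested in the same 4 classes, and 1, 1, 1 and 0 fell, beside the shares of all genes just given. In classical monocyte-like cells Tnfaip3, a ubiquitin-editing brake on NF-kB, rose by 5.01, SE 0.16, Nfkbiz by 4.22, SE 0.10, Nfkbia, which holds NF-kB in the cytoplasm, by 2.68, SE 0.08, and Socs3 by 3.19, SE 0.14. Of the transcription factors 5 of 9, 4 of 9, 4 of 8 and 3 of 9 rose and none fell, beside the same shares, among them the NF-kB subunit Rel at 1.72, SE 0.11, in classical monocyte-like cells and 1.76, SE 0.09, in nonclassical monocyte-like cells. Each of these values was called by edgeR.

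Of the adapters and kinases, the step at which Myd88 acts, 16, 15, 15 and 14 were tested, and 4, 4, 2 and 1 rose and 0, 1, 1 and 0 fell in the same order of classes, beside the same 18.9%, 15.6%, 23.9% and 6.71% of all genes. Irak2, a kinase of the MyD88 complex, rose by 1.78, SE 0.15, in classical and 2.00, SE 0.19, in neutrophil-like cells, and Irak4 fell by 0.98 (SE 0.20) in the latter. Among co-receptors and trafficking genes, Slc15a3, an endolysosomal transporter, rose in all 4 classes, by 1.80 to 2.38, and the scavenger receptor Cd36 by 3.32, SE 0.24, in classical monocyte-like cells. Of the other Toll-like receptors at most 2 passed the low-count filter in any of these fits, and Tlr8 was the only one called.

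A further 6 immediate early genes, Fos, Jun, Dusp1, Ier3, Atf3 and Egr1, were added after the likeness of Cd14 to Ier3 and Dusp1 had been seen. All 6 rose in heart in the 4 myeloid classes, where 18.9%, 15.6%, 23.9% and 6.71% of all genes were called in the same order of classes. Ier3 and Dusp1 had been picked because they followed Cd14 over the same organ-by-class means, so their rise beside it was not an independent result. In classical monocyte-like cells Ier3 rose by 4.80, SE 0.17, Dusp1 by 4.76, SE 0.14, and Egr1 by 7.01, SE 0.16, beside 4.82 for Cd14. Fos also rose in B cell-like (4.46, SE 0.16) and NK cell-like cells (5.48, SE 0.30). Cd14 was not tested in these classes: its means were 0.124 CPM in blood and 7.12 in heart B cell-like cells, and 1.43 and 23.0 in NK cell-like cells. The 4 heart NK cell-like sums held 0 and 0 CPM of Cd14 with control and 44.9 and 47.3 with stroke marrow, on 9 and 5 UMIs, beside summed macrophage markers of 37.3 and 42.9 against 788 and 2013 CPM, whose part was not tested. The part of the immediate early genes in the Cd14 difference was not tested.

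Classes were then compared within an organ, again with the mouse as a block. Heart macrophage-like cells had more Tlr4 and Ly96 than classical monocyte-like cells and less Tlr2, Tlr13 and Myd88, and Cd14 and Tlr7 did not pass the test. Tlr4 was 2.55-fold higher (log2 fold change 1.35, SE 0.21, edgeR adjusted p = 3.52e-05) and Ly96 1.81-fold higher (0.86, SE 0.21, adjusted p = 0.00213). Tlr2 was lower by a log2 value of −0.99, SE 0.14, Tlr13 by −1.19, SE 0.17, and Myd88 by −1.14, SE 0.18 (adjusted p = 1.13e-05, 7.47e-06 and 2.99e-05). Cd14 had −0.16, with a 95% interval from 0.787-fold to 1.02-fold, and Tlr7 0.08, from 0.867-fold to 1.29-fold. These 5 of 7 members compare with 44.4% of all genes called.

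Nonclassical monocyte-like cells differed from classical ones in Cd14, Tlr7 and Tlr13. In heart Cd14 was lower (log2 fold change −1.94, SE 0.15, edgeR adjusted p = 7.59e-11) and Tlr13 higher (0.71, SE 0.17, adjusted p = 0.00176), and 3 of 7 members were called against 35.4% of all genes. The third, Tlr2 (−0.60, SE 0.23, adjusted p = 0.0397), rested on single mice: it was at −0.29 without stroke replicate 2 with an adjusted p of 0.333, and DESeq2 gave 0.193. In blood Tlr7 was higher (1.08, SE 0.12, adjusted p = 1.21e-09) and Tlr13 higher (0.49, SE 0.13, adjusted p = 0.00265), 2 of 7 against 42.5%. Without control replicate 1 the values were 0.97 for Tlr7 and 0.47 for Tlr13 in blood and 0.62 for Tlr13 in heart, all still called.

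Neutrophil-like cells of blood differed from classical monocyte-like ones in all 7 members tested, where 75.7% of all genes were called and the median gene stood at −0.24. Tlr4 was 6.68-fold higher (log2 fold change 2.74, SE 0.20), Cd14 3.70-fold (1.89, SE 0.27), Myd88 2.59-fold (1.37, SE 0.17), Ly96 2.09-fold (1.07, SE 0.26) and Tlr13 2.09-fold (1.06, SE 0.16), while Tlr7 was lower by −2.62, SE 0.28. Their edgeR adjusted p were 8.26e-40, 9.83e-12, 3.78e-15, 8.78e-05, 2.66e-10 and 1.03e-19. Tlr2, at 0.83, SE 0.25, lost its call with DESeq2 (adjusted p = 0.134), with other size factors (0.0550) and without control replicate 2 (0.0553). In heart, with 60.4% of all genes called and a median gene at −0.27, 4 of 7 members were: Tlr4 (2.05, SE 0.28), Tlr13 (1.09, SE 0.21) and Myd88 (0.86, SE 0.24) higher and Tlr7 (−1.48, SE 0.36) lower. Cd14 was at 0.32, SE 0.23, there, and at 0.81 with a call without control replicate 1.

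B cell-like cells of blood had less of 6 of the 7 members tested than classical monocyte-like cells, where 55.2% of all genes were called in either direction. The log2 values were −6.24, SE 0.44, for Tlr13, −4.66, SE 0.69, for Cd14, −2.61, SE 0.25, for Myd88, −2.41, SE 0.39, for Tlr2, −1.85, SE 0.34, for Tlr4 and −1.57, SE 0.19, for Tlr7. Ly96 was at −0.35, with a 95% interval from 0.523-fold to 1.17-fold, and an edgeR adjusted p of 0.328. Since 981 of the B cell-like barcodes came from stroke replicate 2, that mouse weighs most in their precision; without it Ly96 was at −0.77 and called.

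Heart macrophage-like barcodes were also split by whether they held a UMI of Lyve1, Timd4 or Folr2, genes of resident cardiac macrophages; 121, 411, 521 and 400 barcodes per mouse had one and 74, 179, 205 and 187 had none. Cd14 was at 370.4, 413, 418 and 482 CPM in barcodes with a resident gene and at 633, 678, 638 and 650.2 in those without (log2 fold change −0.66, SE 0.07, edgeR adjusted p = 4.61e-10). Tlr2 was at 50.4, 51.9, 54.0 and 56.8 against 74.6, 79.7, 92.4 and 81.8 (−0.68, SE 0.13, adjusted p = 7.76e-05). The 2 subsets did not overlap in either gene, and both were lower with resident genes in all 4 mice.

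Ly96 went the other way, at 50.4, 56.6, 65.7 and 49.2 CPM with and 36.1, 40.6, 44.5 and 27.7 without (0.54, SE 0.16, adjusted p = 0.0129). That call was lost with DESeq2 (adjusted p = 0.290), a stricter cell filter (0.0537), another hashtag rule (0.0583) and without stroke replicate 1 (0.0908) or 2 (0.0773). Tlr4 was at 118, 75.8, 64.6 and 80.5 against 40.9, 69.2, 50.1 and 79.0 CPM and was not called. Of 7 members tested 3 were called, beside 17.3% of all genes. Of 14 response genes tested 8 were lower with resident genes, among them Il1b (−1.91, SE 0.08) and Ccl4 (−1.54, SE 0.10), and so were 6 of 11 inhibitors, among them Tnfaip3 (−0.75, SE 0.10) and Socs3 (−0.80, SE 0.09). The split reads single UMIs, and its dependence on depth was not tested.

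**Figure D3:**
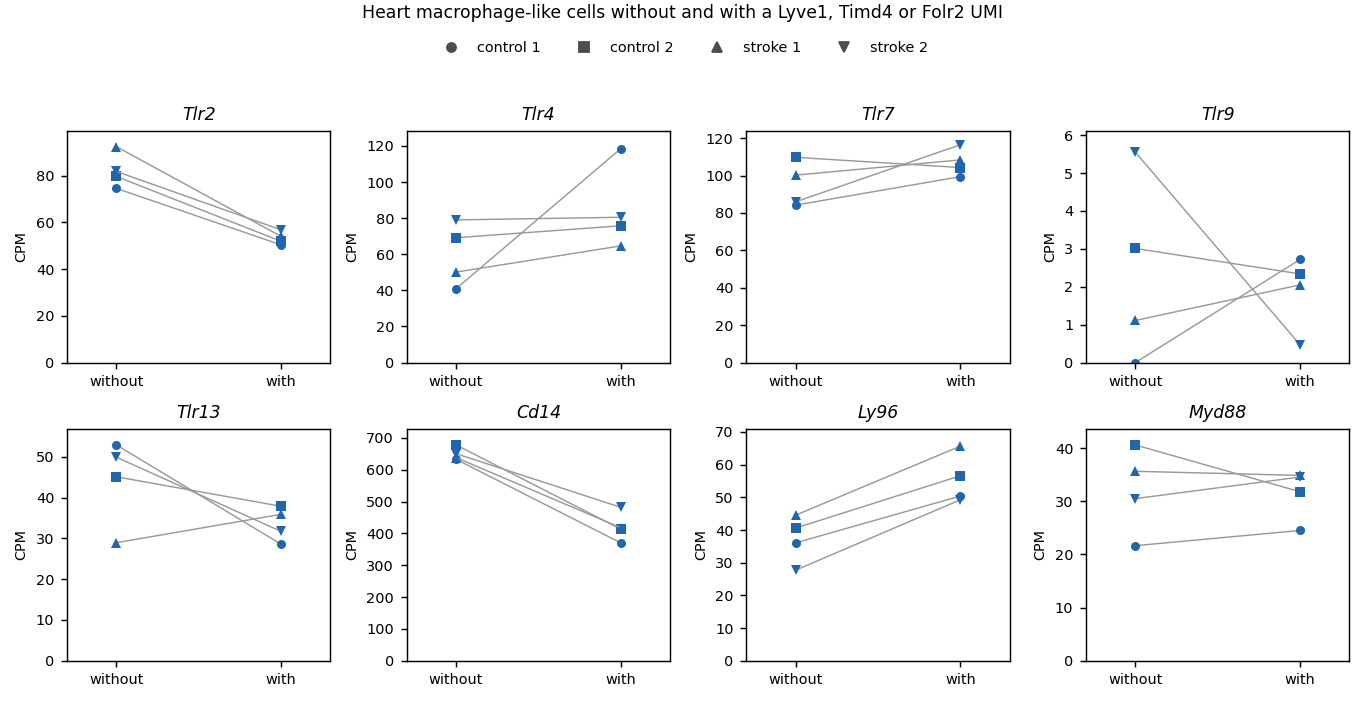
CPM of the 8 genes (vertical axes from 0) in heart macrophage-like barcodes without and with a Lyve1, Timd4 or Folr2 UMI, with the 2 values of a mouse joined by a line and a symbol per mouse. Cd14 and Tlr2 go down and Tlr4 and Ly96 go up in all 4 mice, while Tlr7, Tlr9, Tlr13 and Myd88 cross between mice.

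The comparison of donors asked whether marrow from stroke donors changed these genes. Over 11 comparisons of single classes, 54 member values were tested and 1 was called: Cd14 in heart dendritic cell-like cells. Of all genes, 0% to 0.981% were called in these comparisons, the highest share in heart dendritic cell-like cells. Of all 54, 29 were higher and 25 lower with stroke marrow, with a median log2 fold change of 0.09, and apart from that of Cd14 in heart dendritic cell-like cells they ran from −0.72 to 0.79. Only 3 had an unadjusted p under 0.05, and the share of all genes at that level is not given here. With 2 mice against 2 an exact permutation test cannot go below p = 0.333, so only the model fitted across all genes could make a call. The labels do not say whether mice of a group were transplanted from separate donors, so these p-values measure the spread between these mice. Cells of host and donor origin were not told apart in any of these sums, those of heart macrophage-like cells included.

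In heart macrophage-like cells, the largest class, Cd14 was at 465 and 476 CPM with control marrow and 469.6 and 525 with stroke marrow (0.09, 95% interval from 0.885-fold to 1.28-fold), Tlr2 at 59.1 and 58.5 against 63.0 and 63.2 (0.11), and Tlr4 at 90.4 and 74.2 against 61.2 and 80.1 (−0.19). Tlr4 overlapped between the groups, and neither Cd14 nor Tlr2 passed the test. The remaining 4 tested members had log2 values from −0.13 to 0.20 there, and 0% of all genes were called. The intervals of the 7 ran at most from 0.696-fold to 1.52-fold.

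Heart classical monocyte-like cells had 0 of 7 members called (0% of all genes), with Myd88 at 44.0 and 56.1 CPM with control and 94.2 and 67.9 with stroke marrow (0.61, SE 0.29, edgeR adjusted p = 0.988). Heart nonclassical monocyte-like cells had 0 of 7 (0.0496% of all genes) and heart neutrophil-like cells 0 of 5 (0%). In the former Tlr2 was at 126 and 84.2 CPM against 83.3 and 27.4 (−0.71, SE 0.33, edgeR adjusted p near 1), and without stroke replicate 1 it was −1.90 with an adjusted p of 0.00475. Over the fits without 1 mouse the value ran from −1.90 to −0.28, so single mice decide it. Heart B cell-like cells had 0 of 3 called (0.0415%), and no member could be tested in NK cell-like cells of either organ.

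In blood the counts were 0 of 7 in classical monocyte-like cells (0%), 0 of 6 in nonclassical monocyte-like cells (0.0355% of all genes), 0 of 6 in neutrophil-like cells (0.0209%), 0 of 1 in dendritic cell-like cells (0%) and 0 of 2 in B cell-like cells (0%). Myd88 in nonclassical monocyte-like cells was at 60.5 and 83.1 CPM with control and 43.6 and 42.8 with stroke marrow (−0.72, SE 0.33, edgeR adjusted p near 1). Ly96 in B cell-like cells was at 17.0 and 11.3 against 22.9 and 24.8 CPM (0.79, SE 0.41, adjusted p = 0.763). Neither passed the test. The groups did not overlap in either gene, nor did they in 1786 of the 5640 genes tested in the former class and 2371 of 6408 in the latter. The X-linked Tlr7 and Tlr13 had no call in any class, and without control replicate 1 their log2 values ran from −0.74 to 0.20.

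Cd14 in heart dendritic cell-like cells stood at 69.8 and 88.2 CPM with control marrow (37 and 35 UMIs) and 316 and 217 with stroke marrow (67 and 45 UMIs). Both stroke mice were above both controls, and the groups were likewise separate in 1902 of the 4687 genes tested. The log2 fold change was 1.76, SE 0.29 (edgeR adjusted p = 0.000939); 0.981% of all genes were called in this comparison. These sums held 68 and 62 barcodes with control and 26 and 32 with stroke marrow, and up to 31.3% of the Cd14 UMIs of a mouse came from 1 barcode. The call was lost with hashtag doublets alone removed (1.27, adjusted p = 0.130), with a hashtag ratio for organ (0.90, adjusted p = 0.108) and in a single fit of both organs (1.75, adjusted p = 0.119). It was kept without any 1 mouse, at 1.41 to 2.06, and with DESeq2 (adjusted p = 0.00842).

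Markers of other cells moved with that result. Summed neutrophil markers (10 genes) in heart dendritic cell-like cells were at 24.5 and 20.2 CPM with control marrow and 1501 and 823 with stroke marrow, with Ly6g at 0 in all 4 mice. Summed macrophage markers were at 486 and 698 against 1425 and 1969 CPM, with Lyve1 at 0 in 3 of 4 mice, and the dendritic cell markers (8 genes, all detected) at 1342 and 1457 against 996 and 891. Doublet calls were uneven, 38 and 164 barcodes in the control libraries and 9 and 3 in the stroke libraries. The score thresholds, set by Scrublet for each library, differed too: 0.2593 and 0.1546 in control and 0.52 and 0.5088 in stroke libraries. The counts therefore do not compare doublet rates between the groups. Other pathway genes called there were Cxcl2 (2.14, SE 0.31), Ccl2 (2.67, SE 0.56) and Rab7b (1.61, SE 0.39), higher, and Ccl5 (−4.89, SE 0.54) and Traf3 (−2.13, SE 0.46), lower. The part of other cells' transcripts in the Cd14 value was not tested.

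**Figure D4:**
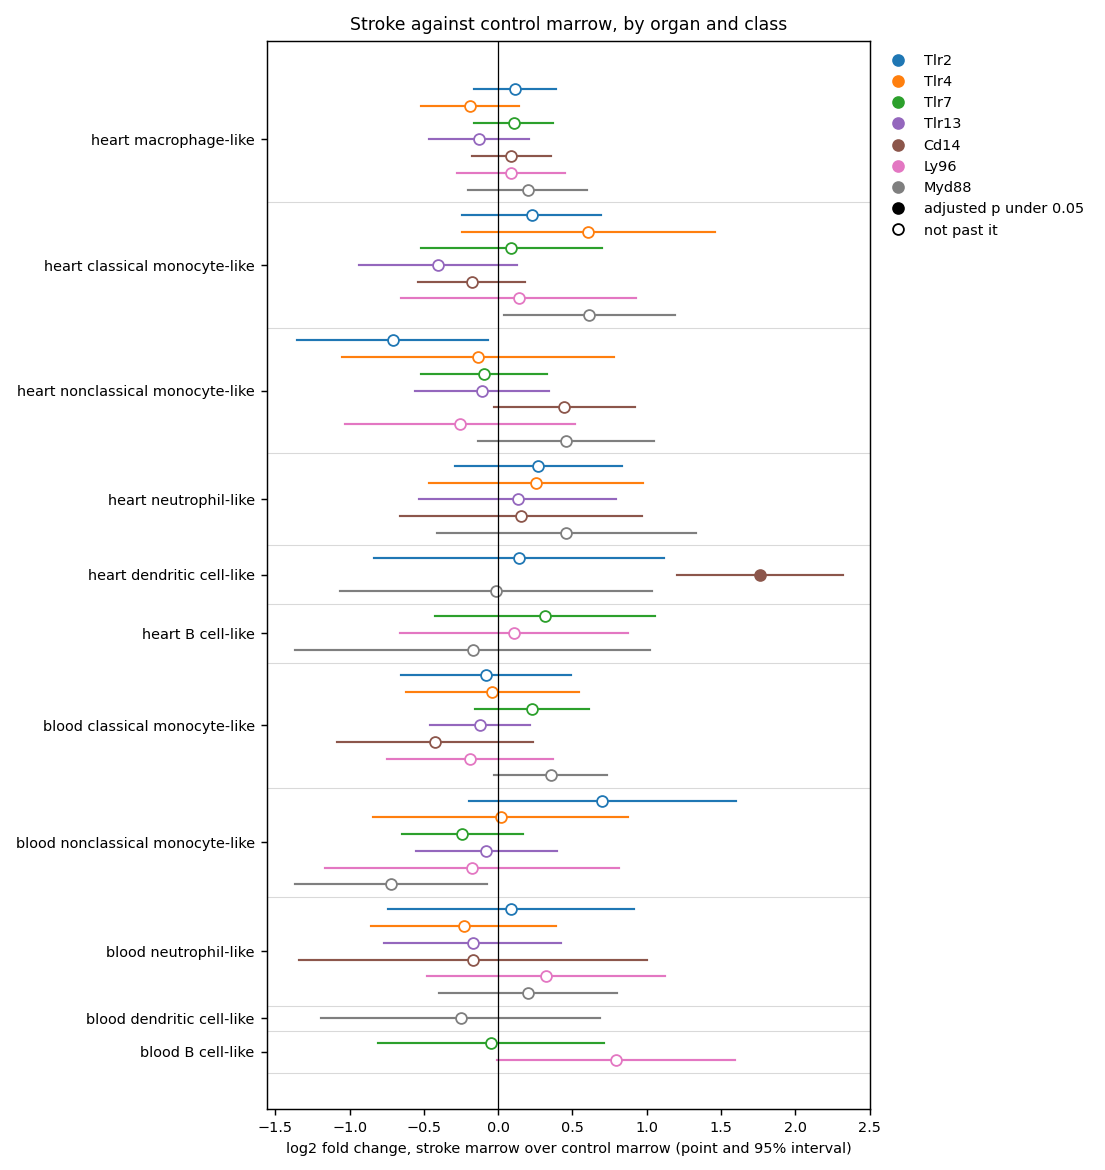
Log2 fold change of stroke over control marrow (horizontal axis, linear, points with 95% intervals) for each member tested in each organ and class, coloured by gene, with a filled point where the adjusted p was under 0.05. A single point is filled, Cd14 in heart dendritic cell-like cells at 1.76, and the other 53 lie between −0.72 and 0.79.

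Over all heart cells, where fewer cells of a type and less RNA per cell cannot be told apart, all 8 members were tested and 0 called by edgeR, against 0.0240% of all genes. At an unadjusted p under 0.05 there were 4, all higher with stroke marrow: Cd14 (0.51, SE 0.16), Myd88 (0.49, SE 0.17), Tlr4 (0.38, SE 0.14) and Tlr2 (0.31, SE 0.11). Their edgeR adjusted p ran from 0.567 to 0.585, and DESeq2 called none of the 8. The share of all genes at that unadjusted level is not given here. The groups did not overlap in these 4 genes, and they were separate in 5078 of the 12479 genes tested. Cell makeup moved with the 4 genes: summed macrophage markers were at 5925 and 10738 CPM with control and 12617 and 11796 with stroke marrow, and neutrophil markers at 4342 and 5884 against 8083 and 13527. Over all blood cells 0 of 8 were called (0% of all genes), with log2 values from −1.05 to 0.28 and B cell-like barcodes filling stroke replicate 2.

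Whether the donor difference differed between heart and blood was tested as an interaction. No member was called in any of the 5 classes with members tested, where 0% of all genes were in classical monocyte-like cells, 0.0327% in nonclassical monocyte-like cells, 0.467% in neutrophil-like cells, 0% in dendritic cell-like cells and 0.117% in B cell-like cells. The largest values were those of nonclassical monocyte-like cells: Myd88 at 1.28, SE 0.45 (edgeR adjusted p = 0.944), and Tlr2 at −1.29, SE 0.51 (adjusted p near 1). For Cd14 the interaction was 0.21, SE 0.35, in classical monocyte-like cells and 0.34, SE 0.39, in neutrophil-like cells, with 95% intervals from −0.49 to 0.90 and from −0.43 to 1.11. Neither interval leaves out 0, and both leave room for an organ difference that is 1.5-fold larger with stroke marrow.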

How the data were processed

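Gene and hashtag UMI counts were used as the authors deposited them, made with Cell Ranger 7.1.0 on mm10 per the submitters' processing notes, and were not normalized. A minimum of 200 genes and a ceiling of 10% for mitochondrial UMIs left 10787 of 11130 barcodes. Organ came from the hashtags by HTODemux (Seurat 5.3.0, quantile 0.99), barcodes with both hashtags (954) or neither (101) were left out, and Scrublet in scanpy 1.11.5 removed 1.98% more, unevenly between libraries. The 9664 barcodes left were clustered on 2000 variable genes, 30 components and 20 neighbours by the Leiden method at resolution 1 (leidenalg 0.10.2) into 22 clusters, of which 2 stayed unnamed; the limits for naming were set after the data were seen. No deposited cell annotation was used.

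UMIs of a class were added up within each organ of a mouse where each mouse had at least 20 barcodes and tested with edgeR 4.0.16 (R 4.3.3): TMM, filterByExpr, quasi-likelihood, Benjamini-Hochberg over all genes, called at an adjusted p under 0.05. Comparisons within mice had the mouse as a block, and donor comparisons had none. The SE is the log2 value over the root of F, and intervals are ± 1.96 SE. CPM carry counting error besides the spread over mice, and a count of 0 allows up to 3 counts.

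The members and gene lists were chosen with earlier results of these data known. Each member called in the main fit of a comparison is named there, while members that were not called are not all named. Of each pathway list at most the 4 called genes with the smallest adjusted p are named. For likeness, the 3 genes with the highest r among those reaching 10 CPM are named. Immediate early genes and the difference between classes in the organ comparison were added after values had been seen, and those genes are named outside this rule. Alternatives covered the test (DESeq2 1.42.0), size factors, low-count filter, clustering, cell filter, doublets, hashtag call, blocking and each mouse left out. Same-numbered mice of the donor groups deviated with a correlation of −0.258 (heart) and −0.256 (blood) over all cells, and −0.025 to 0.219 within the 5 class sums checked. No label ties the numbers, and they were not taken as pairs. Code was tested on simulated data.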

Additional observations from a re-analysis of the deposited data

Results flagged for a closer look

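The organ difference itself differed between classes in 3 cases, by a class-by-organ term in edgeR that was added after the values had been seen. Cd14 rose less from blood to heart in neutrophil-like than in classical monocyte-like cells, by a log2 difference of −1.36 (SE 0.37, adjusted p = 0.00861), where 13.3% of all genes were called. It was called in each fit without 1 mouse, at −1.53 to −1.32, and with DESeq2 at −1.57. Blood neutrophil-like cells already stood at 60.0 CPM of Cd14 and blood classical monocyte-like cells at 17.3, while the heart means were 483 and 517, so the gap lay in blood.

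Tlr7 moved upward from blood to heart in neutrophil-like cells relative to classical monocyte-like cells, by 1.47 (SE 0.50, adjusted p = 0.0394), and relative to nonclassical monocyte-like cells, by 2.14 (SE 0.50, adjusted p = 0.00209), where 11.9% of all genes were called. Heart neutrophil-like cells held 2, 1, 23 and 7 Tlr7 UMIs, or 13.9, 4.58, 52.1 and 17.8 CPM, and blood ones 7.31, 11.7, 15.3 and 11.3 CPM. Stroke replicate 1 held most of these UMIs: without it the values were 0.81 (adjusted p = 0.618) and 1.43 (adjusted p = 0.297). The first was also lost without control replicate 1 (1.31, adjusted p = 0.0887) and stroke replicate 2 (1.44, adjusted p = 0.115). Summed classical monocyte markers in heart neutrophil-like cells were at 918, 412, 1279 and 966 CPM in the same order of mice, highest in the mouse with most Tlr7, and their part in the Tlr7 value was not tested. No member was called between nonclassical and classical monocyte-like cells, where 1.02% of all genes were.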

How the results depend on the processing

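Of the values of single members under other settings, 1982 stayed on their side of the threshold, 18 became called and 24 lost the call. Changes of direction between uncalled values are among the 1982 and were not counted apart. With a call on either side 1 value turned: Tlr13 in neutrophil-like cells, heart against blood, at −0.66 with hashtag doublets alone removed. That setting called 5 members there in place of 2, and 3106 in place of 1127 of all genes. It called 1 member in B cell-like and 1 in NK cell-like cells, the hashtag ratio 2 in dendritic cell-like and 1 in B cell-like cells, and Leiden resolution 2 1 in B cell-like cells. For stroke against control marrow, the call in heart dendritic cell-like cells went to 0 with hashtag doublets alone removed, the hashtag ratio and the single fit, and with no low-count filter 1 member was called over all heart cells (Cd14, 0.53, adjusted p = 0.0319) and 1 in heart NK cell-like cells. With 1 mouse left out, single mice decided the donor value of Tlr2 in heart nonclassical monocyte-like cells, as given above. Over all blood cells without stroke replicate 1, Cd14 was at −2.92 and Tlr13 at −2.79. There the only stroke mouse left was replicate 2, with 981 B cell-like of 1305 blood barcodes. For the difference between classes, leaving out 1 mouse gave 1 to 2 members called in neutrophil-like against classical monocyte-like cells. Against nonclassical monocyte-like cells it gave 0 to 1. Most of these counts stand without the share of all genes called under the same setting, and the causes were not tested.

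Thinned to 1000 and 2000 UMIs, the share of barcodes with a Cd14 UMI was 30.1% and 47.7% in heart classical monocyte-like, 1.32% and 4.12% in blood classical monocyte-like and 31.7% and 48.9% in heart macrophage-like cells. DESeq2 called fewer of all genes between heart and blood, 707 for 1335 in classical monocyte-like, 391 for 953 in nonclassical monocyte-like, 685 for 1127 in neutrophil-like, 256 for 419 in dendritic cell-like and 304 for 629 in B cell-like cells, and between classes 1325 for 2359 in heart and 1888 for 3051 in blood (nonclassical against classical) and 708 for 1441 in the resident split. Without the mouse as a block (no replicate block) the counts were 622 in nonclassical monocyte-like cells and 921 in the resident split. Without stroke replicate 1 there were 857 in classical monocyte-like and 591 in neutrophil-like cells, and without single mice 186 to 732 in dendritic cell-like cells and down to 356 in B cell-like cells, which rose to 945 at Leiden resolution 2 and 976 with hashtag doublets alone removed. Genes called for stroke in heart dendritic cell-like cells numbered 46, and 2 to 90 under other settings. With the replicate number as a block (replicate block), Cd14 in heart dendritic cell-like cells was at 1.75 and no other member was called in a donor comparison; 4 genes were called over all heart cells and 0 over all blood cells, against 43 and 0 with crossed numbers as the block.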
